A study of Mus musculus with 12 samples.

Results

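The genes described here encode proteins that bind, take up and activate long-chain fatty acids in the liver. They are 10 genes of the 54232 in the count table, chosen by name, as a gene family and with earlier results of these data known: the acyl-CoA synthetases *Acsl1*, *Acsl3*, *Acsl4* and *Acsl5*, the fatty acid transport proteins *Slc27a2* and *Slc27a4*, the fatty acid binding proteins *Fabp1* and *Fabp2*, and the acyl-CoA binding proteins *Acbd5* and *Dbi*. All 10 passed the filter on low counts and were among the 17509 genes tested. Total liver RNA came from 10-week-old male C57Bl/6J mice on standard chow that had been fasted for 4 h, with 1 library per mouse. The 6 LKO mice carried *Marchf6* alleles with loxP sites (*Marchf6* fl/fl) and Cre under the albumin promoter, which is active in hepatocytes. The labels name no exon, and the study's text places the loxP sites around the third exon and elsewhere names exon 2, for the constitutive allele. The 6 WT mice were littermates with the same floxed alleles and no Cre, so the floxed allele was shared by both groups, and the cells other than hepatocytes in LKO livers were expected from the design to keep the gene.

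Fatty acids are poorly soluble and are carried in the cytosol by fatty acid binding proteins. Acyl-CoA synthetases of the ACSL family, and most proteins of the SLC27 family, join them to coenzyme A, which keeps them in the cell and commits them to oxidation, to triglycerides, to cholesteryl esters or to phospholipids. The resulting acyl-CoA is held by acyl-CoA binding proteins such as DBI, and peroxisomes receive very long-chain acyl-CoA with the help of ACBD5 in their membrane. In the liver, FABP1 is among the most abundant cytosolic proteins and ACSL1 is the main long-chain synthetase.

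Each liver had from 14860414 to 22111926 reads assigned to genes. Values are given as CPM, the reads of a gene relative to the library total after scaling by the trimmed mean of M-values (normalized CPM), and differences as log2 fold changes of LKO against WT from edgeR's quasi-likelihood test, whose p-values were adjusted by Benjamini-Hochberg across the 17509 genes. *Marchf6* itself stood at 241 ± 8.36 normalized CPM (SD, n = 6) for WT livers and 226 ± 16.5 (SD, n = 6) for LKO, and with reads counted over all of its exons it did not separate the groups (log2 fold change −0.09, adjusted p = 0.585, edgeR). Hepatocyte, pericentral and periportal marker genes were present in every liver. The 6 hepatocyte markers summed to 91949 to 110236 normalized CPM in WT and 83390 to 94964 in LKO livers. Of 13 marker lists, those of Kupffer cells (8 of 8 genes), stellate cells (7 of 7), B cells (4 of 4) and sinusoidal endothelial cells (7 of 8) leaned higher in LKO livers. Those of hepatocytes (5 of 6) and periportal hepatocytes (7 of 8) leaned lower, all without a gene past the threshold. At an unadjusted p under 0.05 (edgeR), 7 of the 8 Kupffer cell, 2 of the 7 stellate cell, 3 of the 4 B cell and 1 of the 8 endothelial markers were higher, against 6.33% of all genes. Lower at that level were 2 of the 6 hepatocyte and 1 of the 8 periportal markers, against 5.36% of all genes. The marker gene that passed was *Cela1* of the exocrine pancreas list, named here after its values were seen, with 21.3 ± 3.34 (SD, n = 6) normalized CPM for WT and 10.9 ± 2.77 (SD, n = 6) for LKO (adjusted p = 0.0107, edgeR). The other 4 genes of that list had at most 3 reads in every liver and were not tested. *Cela1* is thus read as a single gene and not as a measure of pancreatic tissue. In bulk tissue, a change in the number of cells of a type and a change in RNA per cell cannot be told apart.

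Of the 10 genes, *Fabp2* rose in LKO livers and the other 9 did not pass the threshold. This is 1 of 10 called, where 0.428% of all genes tested were called in either direction and 0.274% as higher. At an unadjusted p under 0.05 there were 3 of the 10, *Fabp2*, *Dbi* and *Acsl5*, all higher in LKO livers, against 11.7% of all genes in either direction and 6.33% higher. None of the 10 was lower at that level, where 5.36% of all genes were. The log2 fold change was above 0 for 7 of the 10, as for 50% of all genes, and the median over the 10 was 0.13, against 0.00016 over all genes tested. That median rested on single livers, since it was 0.03 without LKO replicate 1 and 0.21 without WT replicate 2.

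**Figure D1:**
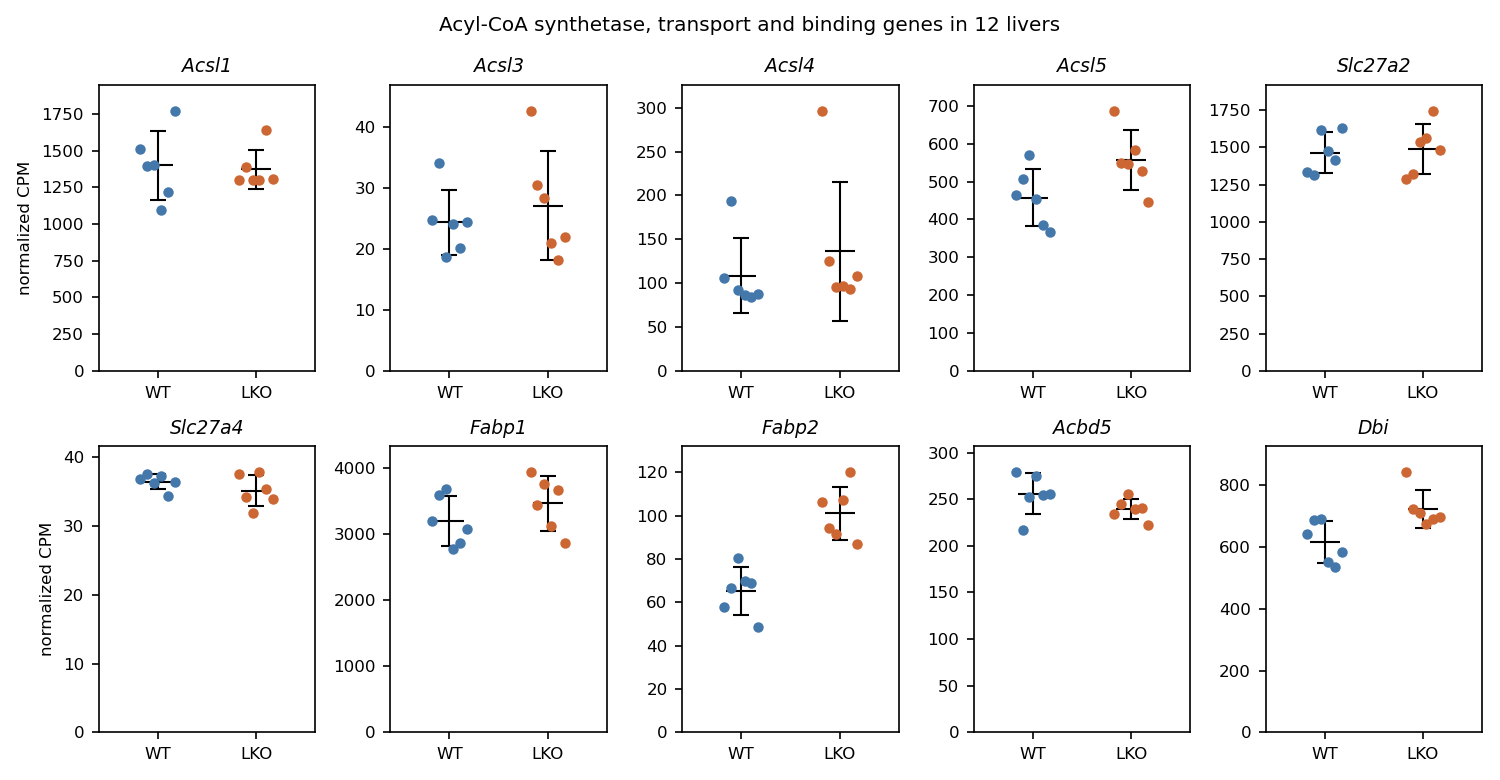
Normalized CPM (vertical axis, from 0) of the 10 genes in each of 6 WT (blue) and 6 LKO (orange) livers, with the mean and SD as black bars. For *Fabp2* the 6 LKO livers sit between 86.9 and 120.0, above all WT livers, whereas 1 liver of each genotype stands above the rest for *Acsl4*.

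**Figure D2:**
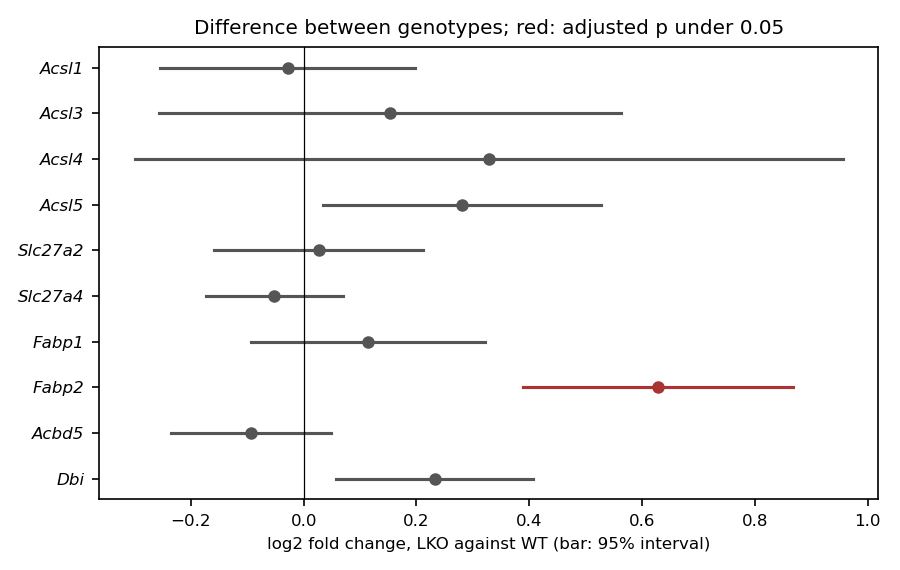
Log2 fold changes of LKO against WT (horizontal axis) with their 95% intervals for the 10 genes. The interval of *Fabp2* runs from 0.39 to 0.87, and the widest interval, that of *Acsl4*, runs from −0.30 to 0.96.

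*Fabp2* (ENSMUSG00000023057) encodes the intestinal-type fatty acid binding protein and lies on chr3:122895072-122899506 of GRCm38, on the plus strand. Its level ran from 48.5 in WT replicate 6 to 80.4 in WT replicate 3, with a median of 67.7 normalized CPM. In LKO livers it ran from 86.9 in replicate 6 to 120.0 in replicate 5, with a median of 100.2. The lowest LKO liver was thus above the highest WT liver, an ordering that 0.748% of all genes tested showed in this direction, 0.554% in the opposite direction and 1.3% in either. The other 9 genes overlapped between the genotypes. The WT mean of 65.3 ± 11.0 (SD, n = 6) compared with an LKO mean of 101.0 ± 12.4 (SD, n = 6). On the log2 scale this was 0.63 (SE 0.11, adjusted p = 0.0197, edgeR), or 1.55-fold with a 95% interval from 1.31-fold to 1.82-fold. The adjusted p was 0.0563 without WT replicate 1 and 0.0550 without WT replicate 5, while the log2 fold change with any 1 liver left out stayed between 0.56 and 0.70 (edgeR). Defining genes of enterocytes, the cells in which *Fabp2* is most abundant, were at or near 0 in these livers. Of the 5 enterocyte markers, 4 had at most 3 reads in every liver, 3 of these without any read, and their summed level was at most 0.235 normalized CPM in WT and 0.404 in LKO livers.

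*Fabp1* (chr6:71199827-71205023), the liver-type binding protein, was the most abundant of the 10 genes per kb of exon length. Its level ran from 2784 to 3693 normalized CPM in WT livers, with a median of 3142, and from 2863 to 3946 in LKO livers, with a median of 3558. The groups overlapped over most of their range, and the log2 fold change was 0.11 (SE 0.097, adjusted p = 0.698, edgeR), with an interval from −0.09 to 0.32. A rise of the size of that of *Fabp2* is thus outside the interval for *Fabp1*, although the difference between the changes of the paralogs was not tested.

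The stretches before the start sites of this pair of paralogs are shown because 1 of them rose and the other did not pass the test. Both are the 250 bases upstream of the RefSeq start on the plus strand of GRCm38.p6, written 5′ to 3′, with capitals for TATAAA and for AGGTCA or its reverse complement, the site that many nuclear receptors recognize, searched on both strands.
Fabp1, chr6:71199629-71199878: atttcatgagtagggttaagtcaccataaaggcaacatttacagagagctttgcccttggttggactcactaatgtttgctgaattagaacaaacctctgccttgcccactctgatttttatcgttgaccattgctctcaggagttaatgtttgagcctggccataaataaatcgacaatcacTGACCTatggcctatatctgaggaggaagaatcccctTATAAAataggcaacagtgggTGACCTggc
Fabp2, chr3:122894822-122895071: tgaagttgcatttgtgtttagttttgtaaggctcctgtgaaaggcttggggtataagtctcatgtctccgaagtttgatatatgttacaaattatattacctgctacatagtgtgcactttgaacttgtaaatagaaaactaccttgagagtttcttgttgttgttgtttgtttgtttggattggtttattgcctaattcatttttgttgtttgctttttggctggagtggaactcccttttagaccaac
The *Fabp1* stretch held TATAAA at position −30 from the start and TGACCT at positions −67 and −9, and the *Fabp2* stretch held none of these letters. RefSeq gave 13 such stretches for the 10 genes, and among 32851 mouse stretches of the same length 12.4% held TATAAA and 14% held AGGTCA in either direction. Besides *Fabp1*, *Slc27a2* was the other of the 10 genes with AGGTCA. An exact direct repeat of AGGTCA with 1 base between the copies was found before none of the 10 genes and in 0.0335% of all stretches. Imperfect copies were not searched, so such repeats with a changed letter are not counted. In the *Fabp1* stretch, TGACCT at position −67 is followed by atggcct, which makes an imperfect copy of this kind. GGGCGG was found before 5 of the 10 genes and in 32.7% of all stretches. These matches are a description of the letters and say nothing of which factors were bound.

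**Figure D3:**
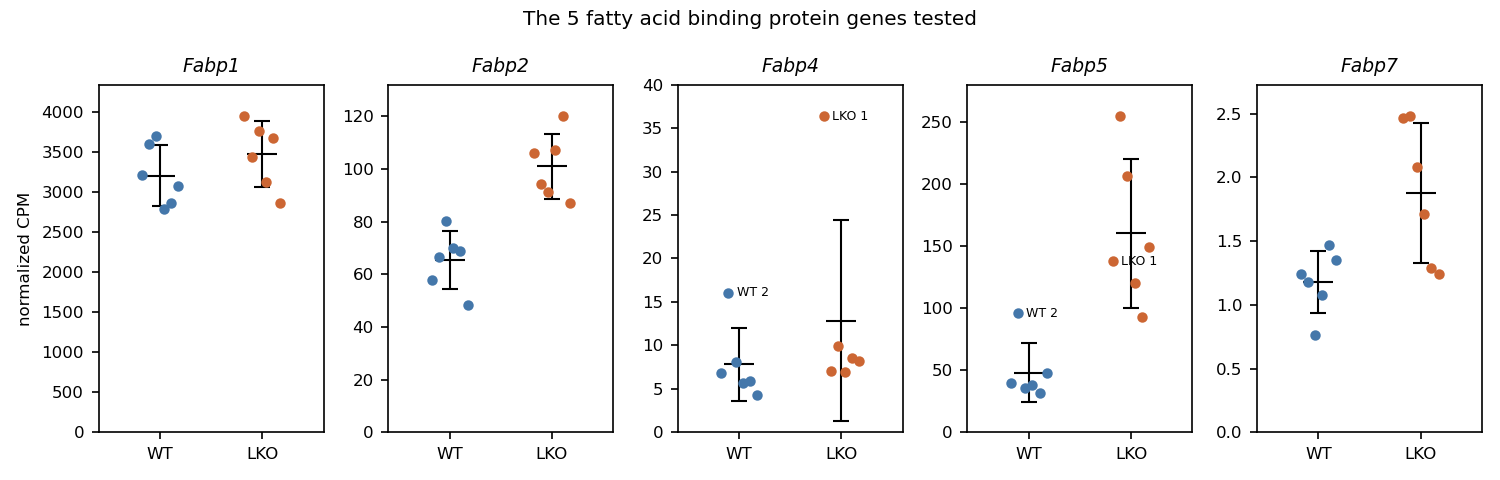
Normalized CPM (vertical axis, from 0) of the 5 fatty acid binding protein genes with enough reads to be tested, in 6 WT (blue) and 6 LKO (orange) livers, with mean and SD. WT replicate 2 and LKO replicate 1 are marked for *Fabp4* and *Fabp5*, and WT replicate 2 is the WT liver with the highest level of both genes.

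The rest of the family was measured as well. Of 8 other fatty acid binding protein genes, 3 had enough reads to be tested. All 3 were higher in LKO livers, as were 50% of all genes tested. *Fabp5* passed the threshold, where 0.274% of all genes did so as higher. *Fabp5* encodes the epidermal-type protein, which is abundant in macrophages, endothelial cells and adipocytes. It had 31.9 to 95.9 normalized CPM in WT livers, with a median of 38.9, and 92.7 to 254.6 in LKO livers, with a median of 143. All LKO livers but replicate 5 were above all WT livers, and all WT livers but replicate 2 were below all LKO livers. The means were 48.2 ± 23.9 (SD, n = 6) and 160.1 ± 59.6 (SD, n = 6), a difference of 1.73 on the log2 scale (SE 0.28, adjusted p = 0.0119, edgeR), or 3.32-fold. It was called with each of the 12 livers left out in turn, with log2 fold changes between 1.55 and 2.05. *Fabp7*, the brain-type gene, had 1.18 ± 0.245 (SD, n = 6) and 1.88 ± 0.552 (SD, n = 6) normalized CPM (adjusted p = 0.247, edgeR), and *Fabp4*, the adipocyte-type gene, had 7.81 ± 4.23 (SD, n = 6) and 12.8 ± 11.6 (SD, n = 6), with 36.4 in LKO replicate 1 and at most 9.93 in the other LKO livers. The Kupffer cell markers summed to 112 to 151 normalized CPM in WT and 142 to 243 in LKO livers, the stellate cell markers to 192 to 294 and 235 to 340, the endothelial markers to 243 to 326 and 262 to 315, and the B cell markers to 0.647 to 1.21 and 1.26 to 2.19. Their part in the rise of *Fabp5* was not tested. Of the 5 adipocyte markers, 4 had at most 3 reads in every liver, and the summed level of the list was at most 0.740 normalized CPM.

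Among the synthetases, *Acsl4* (ENSMUSG00000031278, chrX:142317993-142390535, minus strand) differed most between livers. ACSL4 prefers arachidonic acid and other polyunsaturated fatty acids and is known for its part in ferroptosis, a form of cell death driven by lipid peroxidation. Its level in WT livers was 84.7 to 106 normalized CPM in 5 livers and 194 in replicate 2. In LKO livers it was 93.9 to 126 in 5 livers and 297 in replicate 1. The distance from the highest liver to the next took 0.804 of the range of the WT group and 0.843 of that of the LKO group, while no other liver lay apart in either genotype. The WT mean was 109 ± 42.7 (SD, n = 6) and the LKO mean 136 ± 79.5 (SD, n = 6). The log2 fold change of 0.33 had an SE of 0.29 and a 95% interval from −0.30 to 0.96 (adjusted p = 0.716, edgeR). Without LKO replicate 1 the log2 fold change was −0.06, and without WT replicate 2 it was 0.57. Without both livers that stand apart it was 0.19 (adjusted p = 0.469, edgeR), and the means were 91.4 ± 8.76 (SD, n = 5) and 104 ± 13.3 (SD, n = 5).

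The coefficient of variation of *Acsl4* was 39.3% in WT and 58.4% in LKO livers, and 9.59% and 12.7% without the same 2 livers. The biological coefficient of variation that edgeR estimated from both genotypes, 35.4%, was above that of 98.6% of the 1000 genes nearest in abundance. *Acsl3* came next, at the 95th percentile with 23.4%, and *Slc27a4* had the lowest percentile, 5.60, with 8.40%. The other 7 genes lay between the percentiles of 27.1 for *Acbd5* and 80 for *Fabp2*. Spread was thus uneven among genes that act on the same substrates, from 3.07% for *Slc27a4* in WT livers to the values of *Acsl4*.

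**Figure D4:**
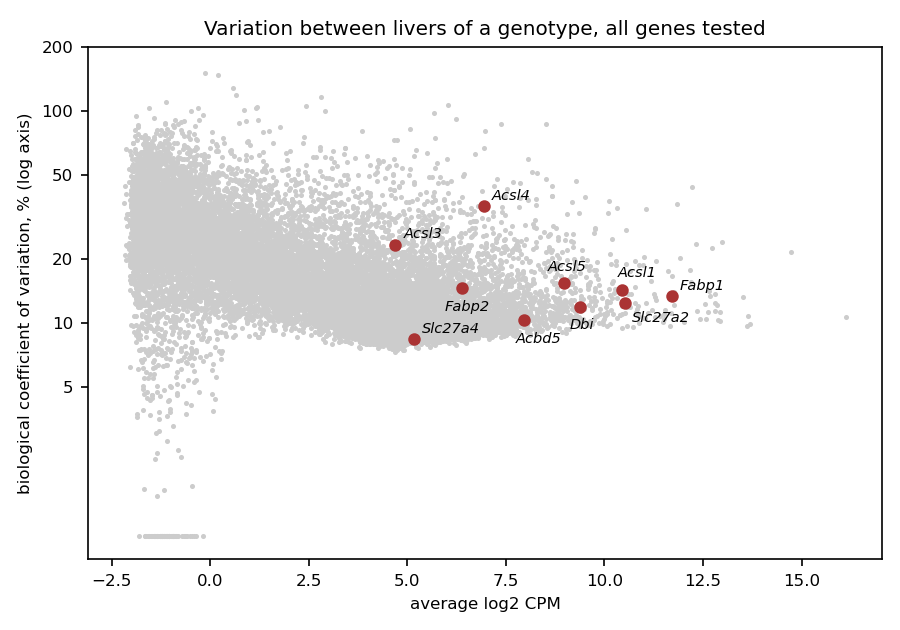
Biological coefficient of variation between livers of a genotype in percent (vertical axis, logarithmic) against average log2 CPM (horizontal axis) for all genes tested (grey) and the 10 genes (red). *Acsl4*, at 35.4%, lies above most genes of its abundance, and *Slc27a4*, at 8.40%, near the lower edge.

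The genes whose levels followed those of *Acsl4* most closely were searched among the 7788 other genes with a mean of at least 10 normalized CPM, after the mean of each genotype was subtracted. The 5 highest Pearson correlations over the 12 livers belonged to *Mrap* (0.982), which encodes an accessory protein of melanocortin receptors, *Fam124a* (0.973), *Psmd4* (0.971), a subunit of the proteasome, *Ube2g2* (0.970), a ubiquitin-conjugating enzyme of the endoplasmic reticulum, and *Mvp* (0.962), the major vault protein. *Mrap* had 84.4 normalized CPM in WT replicate 2 and 104 in LKO replicate 1, against 28.4 to 35.6 in the other WT and 35.6 to 44.2 in the other LKO livers. All 5 genes were highest in the same pair of livers within their genotypes, and without these the correlations over the 10 remaining livers were 0.84, 0.83, 0.66, 0.87 and 0.65 in the same order. None of the 5 differed between genotypes, with adjusted p-values from 0.348 to 0.938 (edgeR). The correlations share their libraries and are given as a description. For comparison, the highest correlations with *Acsl1* and *Fabp1* over the 12 livers were lower. They were 0.861 for *Oplah*, 0.836 for *Proser1*, 0.824 for *E2f8*, 0.823 for *Ccp110* and 0.811 for *Eci2* with *Acsl1*, and 0.892 for *Pecam1*, 0.863 for *Flt4*, 0.862 for *Tceanc2*, 0.855 for *Tead1* and 0.842 for *Vcam1* with *Fabp1*. Over the 10 livers without WT replicate 2 and LKO replicate 1 they were not lower than those with *Acsl4*. For the same genes they ran there from 0.818 to 0.901 with *Acsl1* and from 0.795 to 0.877 with *Fabp1*.

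**Figure D5:**
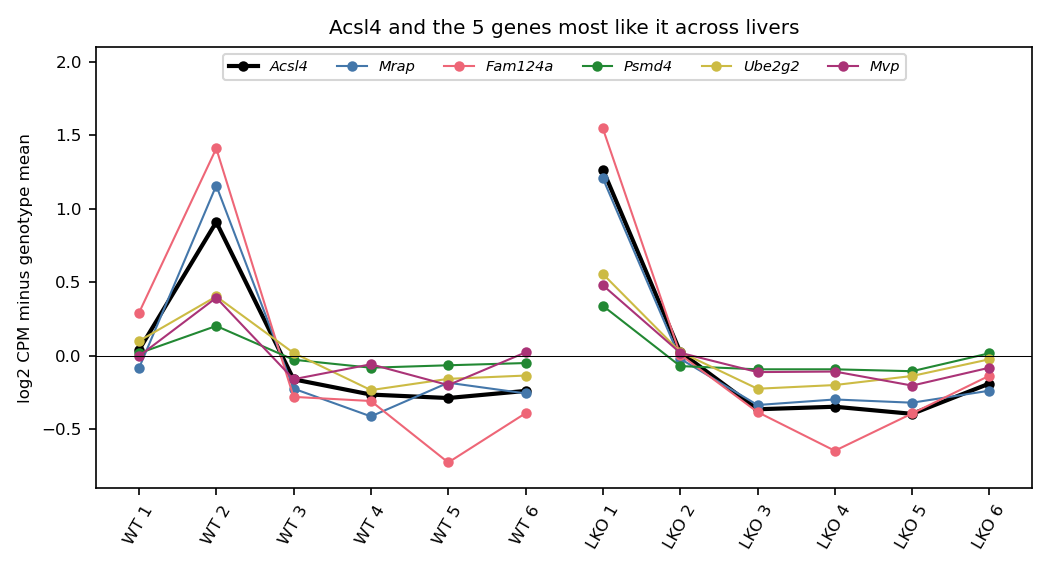
Log2 CPM minus the mean of the genotype (vertical axis) in each liver (horizontal axis) for *Acsl4* (black, thick line) and the 5 genes most like it. All 6 lines peak in WT replicate 2 and in LKO replicate 1.

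WT replicate 2 and LKO replicate 1 also had the lowest summed level of the 7 pericentral hepatocyte markers in their genotypes, 7994 and 7507 normalized CPM, with 10477 and 10265 in the highest livers. *Cyp2e1*, named here after its values were seen, made up most of this sum. Its mean was 6342 normalized CPM for WT and 6446 for LKO, whereas *Glul*, the next marker by level, reached 1041 and 1036. The sum thus mainly follows 1 gene and is not read as a measure of pericentral hepatocytes. The read totals of WT replicate 2 and LKO replicate 1, 17980299 and 20722320, were within the range of the other libraries. The Kupffer cell list summed to 151 normalized CPM in WT replicate 2, the highest of the WT livers, and to 178 in LKO replicate 1, the third highest of the LKO livers. LKO replicate 1 also had the highest sum of the cholangiocyte markers, 129 normalized CPM against 34.2 to 53.5 in the other LKO livers. Most of the level of this list came from *Spp1*, named here after its values were seen. *Spp1* averaged 48.1 ± 32.9 (SD) normalized CPM in LKO livers, and the next marker, *Sox9*, 7.31 ± 1.73 (SD). The other markers of the list averaged at most 1.54 there. The sum is thus not read as a measure of cholangiocytes. LKO replicate 1 had the lowest sum of the periportal markers in its genotype, 12944. WT replicate 2 lay inside the range of the other WT livers in both sums. The part of these differences in the *Acsl4* levels was not tested.

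*Acsl3* (chr1:78657825-78707743), which acts at the endoplasmic reticulum and on growing lipid droplets, was the least abundant synthetase of the 4. It ran from 18.7 to 34.0 normalized CPM in WT and from 18.2 to 42.7 in LKO livers, and the highest livers were again WT replicate 2 and LKO replicate 1. The log2 fold change was 0.15 (SE 0.19, adjusted p = 0.815, edgeR), and −0.03 without LKO replicate 1. *Acsl5* (chr19:55251938-55297720), a synthetase of mitochondria and the endoplasmic reticulum, ran from 367 to 569 with a median of 459 in WT livers, and from 445 to 687 with a median of 547 in LKO livers. The groups overlapped, and LKO replicates 1 and 4 were above all WT livers. Its log2 fold change of 0.28 had an SE of 0.12, an unadjusted p of 0.0280 and an adjusted p of 0.347 (edgeR), so it did not pass across all genes. *Acsl1* (chr8:46471037-46536051) ran from 1095 to 1772 in WT and from 1297 to 1638 in LKO livers, with a log2 fold change of −0.03 and an interval from −0.25 to 0.20 (adjusted p = 0.952, edgeR). LKO replicate 5 lay apart from the other LKO livers, which reached 1385 normalized CPM at most.

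Scaled by exon length, *Acsl1* made up 52.6% ± 6.12 (SD, n = 6) of the summed level of the 4 *Acsl* genes in WT livers and 47.7% ± 5.82 (SD, n = 6) in LKO livers. *Acsl5* made up 37.3% ± 5.33 (SD, n = 6) and 41.3% ± 2.93 (SD, n = 6), *Acsl4* 7.85% ± 2.49 (SD, n = 6) and 8.84% ± 3.94 (SD, n = 6), and *Acsl3* 2.21% ± 0.411 (SD, n = 6) and 2.23% ± 0.552 (SD, n = 6). The ranges of the genotypes overlapped for each of the 4 shares, and LKO replicate 1 had the largest share of *Acsl4*, 16.7%. No test was made of the shares. They depend on the length used, which is that of all annotated exons of a gene merged, 10483 bases for *Acsl1* and 4864 for *Acsl5*. Where the transcripts present are shorter than that, the level per kb is understated. Without scaling by length, the WT means were 1399 normalized CPM for *Acsl1* and 458 for *Acsl5*.

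Neither transport protein passed the threshold. *Slc27a2* (chr2:126552407-126588243), a very long-chain acyl-CoA synthetase of peroxisomes and the endoplasmic reticulum also known as FATP2, ran from 1315 to 1633 normalized CPM in WT and from 1289 to 1748 in LKO livers, and its log2 fold change was 0.03 with an interval from −0.16 to 0.21 (adjusted p = 0.945, edgeR). It was lowest in the pair of livers with the highest *Acsl4*, WT replicate 2 and LKO replicate 1. *Slc27a4* (chr2:29802634-29817522), which encodes FATP4, ran from 34.4 to 37.6 in WT and from 31.9 to 37.9 in LKO livers, and its interval from −0.17 to 0.07 was the narrowest of the 10 genes (adjusted p = 0.774, edgeR).

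Of the acyl-CoA binding proteins, *Dbi* (ENSMUSG00000026385, chr1:120113280-120121078, minus strand) encodes the main cytosolic acyl-CoA binding protein, also known as diazepam binding inhibitor. Its level ran from 536 to 691 in WT livers, with a median of 612, and from 673 to 841 in LKO livers, with a median of 703. All LKO livers were above the WT mean, and 4 of them were above all WT livers. Its log2 fold change was 0.23 (SE 0.082), with an interval from 0.06 to 0.41, an unadjusted p of 0.0130 and an adjusted p of 0.269 (edgeR). LKO replicate 1 was again the highest, at 841 against at most 722 in the other LKO livers. *Acbd5* (chr2:23068167-23115558), which tethers peroxisomes to the endoplasmic reticulum, had 256 ± 21.9 (SD, n = 6) and 240 ± 10.9 (SD, n = 6) normalized CPM and a log2 fold change of −0.09 with an interval from −0.24 to 0.05 (unadjusted p = 0.178, edgeR).

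In levels per kb of exon length over all 12 livers, *Fabp1* came first with 6035 ± 723 normalized CPM per kb (SD, n = 12), followed by *Dbi* with 470 ± 58.5, *Slc27a2* with 394 ± 39.2, *Acsl1* with 132 ± 17.5, *Acsl5* with 104 ± 18.5, *Fabp2* with 86.2 ± 22.5, *Acbd5* with 25.3 ± 1.90, *Acsl4* with 22.6 ± 11.6, *Slc27a4* with 8.12 ± 0.416 and *Acsl3* with 5.90 ± 1.65. Neighbours whose ranges over the livers overlapped were *Dbi* and *Slc27a2*, *Acsl1* and *Acsl5*, *Acsl5* and *Fabp2*, *Acbd5* and *Acsl4*, and *Slc27a4* and *Acsl3*. The range of *Fabp1* lay apart from all others. This order holds for the merged length of all annotated exons, and transcripts shorter than that would change it. The means of *Acbd5* and *Acsl4* were 26.2 and 20.1 per kb in WT but 24.5 and 25.2 in LKO livers. The turned order in LKO livers rested on replicate 1, with 54.9 per kb of *Acsl4* against 17.4 to 23.3 in the others. *Acbd5* was above *Acsl4* in 10 of the 12 livers. Part of the exons of *Acsl1* (9.91%), *Acsl5* (8.31%) and *Slc27a2* (11.2%) is shared with a gene on the opposite strand, and 5.60% of those of *Acsl3* with *Utp14b* on the same strand. Reads from these parts can match both genes, and whether the counting kept or set aside such reads is not given in the sources used here.

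Whether livers that were high in 1 of the genes were high in others was examined over the 45 pairs, with the genotype means subtracted. After Benjamini-Hochberg adjustment over the pairs, 3 had a permutation p of 0.0466 for Pearson's r, and none passed with Spearman's rho as well. *Acsl3* and *Acsl4* had r = 0.85 (permutation p = 0.00265) and rho = 0.64 (permutation p = 0.0451, adjusted 0.261). *Acsl4* and *Dbi* had r = 0.77 (permutation p = 0.00304) and rho = 0.73 (permutation p = 0.00377, adjusted 0.101). *Fabp1* and *Dbi* had r = 0.80 (permutation p = 0.00311) and rho = 0.81 (permutation p = 0.0045, adjusted 0.101). Within WT and LKO livers, r was 0.84 and 0.85 for the pair of synthetases, 0.65 and 0.97 for *Acsl4* with *Dbi*, and 0.97 and 0.61 for *Fabp1* with *Dbi*. The 2 livers farthest from the median of the gene named first were then left out. For *Acsl3* and *Acsl4*, r was 0.74 without LKO replicates 1 and 5. For *Acsl4* and *Dbi* it was 0.52 without LKO replicate 1 and WT replicate 2, on which that relation rests in large part. For *Fabp1* and *Dbi* it was 0.85 without LKO replicate 6 and WT replicate 3. The livers left out differ between pairs, so these values do not rank the pairs. Whether the relation of *Acsl3* and *Acsl4* also rests on WT replicate 2 was not tested. Levels of *Slc27a2* ran against those of *Acsl3* and *Acsl4*, with r of −0.78 and −0.72, neither of which passed (permutation p = 0.00646 and 0.00668, adjusted 0.0601 for both).

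The other genes of the pathway were read from 9 lists. Of 7 further long-chain and very long-chain synthetases, 4 were tested and none passed, with 1 at an unadjusted p under 0.05. This was *Slc27a5*, which encodes a bile acid CoA synthetase of the liver, with 931 ± 38.1 (SD, n = 6) and 813 ± 74.9 (SD, n = 6) normalized CPM (log2 fold change −0.20, adjusted p = 0.268, edgeR). *Slc27a1* had a log2 fold change of 0.38 and *Slc27a3* one of −0.54 (adjusted p = 0.549 and 0.552, edgeR). Of 11 synthetases of medium-chain and short-chain acids, 10 were tested and none passed, 6 of them higher, against 50% of all genes. The lowest p-values belonged to *Acsm1* (log2 fold change −0.18), *Acss2* (0.33), the cytosolic enzyme that makes acetyl-CoA from acetate, and *Acsm2* (−0.56), with adjusted p-values of 0.307, 0.377 and 0.453 (edgeR). Of 7 other acyl-CoA binding proteins, 5 were tested and none passed, and the lowest p-values belonged to *Scp2* (−0.16), *Eci2* (0.24) and *Acbd6* (0.10), with adjusted p-values of 0.412, 0.448 and 0.637 (edgeR).

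Acyl-CoA thioesterases hydrolyse acyl-CoA to the free fatty acid and coenzyme A. Of 15 listed, 13 were tested, 11 had a log2 fold change above 0, against 50% of all genes, and none passed the threshold. At an unadjusted p under 0.05 there were 3, all higher, against 6.33% of all genes. These were *Acot2*, with 3.29 ± 1.84 (SD, n = 6) and 8.04 ± 4.33 (SD, n = 6) normalized CPM and a log2 fold change of 1.31 (adjusted p = 0.142, edgeR), *Acot8* (0.22) and *Acot13* (0.20). The adjusted p of *Acot2* was 0.0342 without WT replicate 3 (edgeR) and 0.0188 with DESeq2, and it did not pass in the other alternatives. *Acot2* has a near-identical copy, *Acot1*, and reads that match both cannot be assigned to 1 of them. The median over the list was 0.22, beside 0.00016 over all genes tested.

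Of 8 genes of fatty acid and lipoprotein uptake, 3 had a log2 fold change above 0, against 50% of all genes. At an unadjusted p under 0.05 (edgeR), 2 were higher and 2 lower, against 6.33% and 5.36% of all genes, and the median was −0.03. *Lpl* passed the threshold, where 0.274% of all genes did so as higher. *Lpl* encodes lipoprotein lipase, which frees fatty acids from circulating triglycerides. Normalized CPM averaged 28.5 ± 6.57 (SD, n = 6) in WT livers and 67.5 ± 25.9 (SD, n = 6) in the LKO group. This is 1.24 on the log2 scale (adjusted p = 0.0207, edgeR). All LKO livers were above all WT livers, an ordering that 0.748% of all genes tested showed. The adjusted p of *Lpl* was above 0.05 without WT replicate 4, WT replicate 5 or LKO replicate 3, at most 0.0698 (edgeR). It was 0.0550 without WT replicate 2 and LKO replicate 1 together (edgeR). *Cd36*, a fatty acid translocase, had a log2 fold change of 1.46 (adjusted p = 0.134, edgeR), with WT replicate 3 at 46.7 normalized CPM and the other WT livers at 10.0 to 17.7. Without WT replicate 3 the adjusted p of *Cd36* was 0.0103 (edgeR), and it did not pass in the other alternatives. *Cav1*, which encodes caveolin, had a log2 fold change of −0.44 (adjusted p = 0.191, edgeR).

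None of 12 enzymes that use acyl-CoA passed, 7 of them with a log2 fold change above 0, against 50% of all genes. Those with the lowest p were *Crat*, carnitine acetyltransferase, at 0.71 (adjusted p = 0.215, edgeR), *Dgat1*, an enzyme of triglyceride synthesis, at 0.17, and *Acadl*, a dehydrogenase of fatty acid oxidation, at 0.15. PPARA is a nuclear receptor that fatty acids activate and that controls *Acsl1*, *Fabp1* and other genes of fatty acid use. None of 14 listed PPARA targets passed and 10 had a log2 fold change above 0, against 50% of all genes. At an unadjusted p under 0.05, 5 were higher and 1 lower, against 6.33% and 5.36% of all genes, and the median was 0.47, beside 0.00016 over all genes. *Vnn1* (1.12), *Pdk4* (1.06) and *Acaa1b* (0.47) had the lowest p, with adjusted values of 0.168, 0.279 and 0.324 (edgeR). *Pdk4* reached 25.0 normalized CPM in LKO replicate 1 and at most 9.25 in the other LKO livers. Of 12 transcriptional regulators none passed and 7 had a log2 fold change above 0. At an unadjusted p under 0.05 (edgeR), 1 was higher and 4 were lower, against 6.33% and 5.36% of all genes, and the median was 0.02. The lowest p-values belonged to *Pparg* (0.70), *Srebf2* (−0.43) and *Rxra* (−0.20), with adjusted values of 0.164, 0.165 and 0.247 (edgeR). The adjusted p of *Srebf2* was 0.0305 without LKO replicate 1 (edgeR), and it did not pass in the other alternatives.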

How the data were processed

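The authors deposited unnormalized counts for each Ensembl gene, made by trimming with Trimmomatic 0.36, aligning with HISAT2 2.1.0 to GRCm38.p6 (Ensembl 93) and counting with HTSeq 0.6.1. The strand setting is not given in the sources used here. Groups came from the library names in the labels. Symbols, coordinates and exon lengths were taken from the GENCODE M21 annotation of GRCm38, where 54165 of 54232 identifiers were found, and sequences from RefSeq (GRCm38.p6). The exon length of a gene is that of all its annotated exons merged.

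Following the study, a gene entered the fit if 6 or more livers each had over 2 reads of it. Counts were scaled by TMM and fitted with edgeR 4.0.16 in R 4.3.3, with genotype as the only term. Intervals are at 95%, from the t distribution with the degrees of freedom of the fit, and depth bears on counting error only. Correlations used 100000 permutations within genotype, two-sided, of log2 CPM with a prior count of 0.5.

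The genes and lists were chosen with earlier results of these data known. The genes named are the 10 members, *Marchf6*, in each pathway list every gene past the threshold and the 3 of lowest p, and the 5 genes most like *Acsl4*, *Acsl1* and *Fabp1*. A cell type marker is named only where stated. The alternatives were RLE and upper-quartile scaling, no filter, at least 10 reads in every liver, limma voom 3.58.1 (the study's test), DESeq2 1.42.0, a replicate block, scale factors from all but the 20 top genes, each liver left out, and 2 livers left out together. The fits were first tested on simulated counts with 200 changed genes.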

Additional observations from a re-analysis of the deposited data

Results flagged for a closer look

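In each group of 6 livers, the gap between the extreme liver and its closest neighbour was divided by the range of the group and compared with Dixon's critical value at 95%. The 76 groups searched were those of the 10 genes, *Marchf6* and the genes named from the pathway lists. Of these, 10 were above it, and 4 of the 10 belonged to the 20 groups of the acyl-CoA and fatty acid binding genes. About 3.8 would be expected of independent groups with normally distributed values. In WT livers the extreme livers were replicate 2, highest for *Acsl4* (0.804), *Fabp5* (0.755) and *Fabp4* (0.681), and replicate 3, highest for *Acot2* (0.678) and *Cd36* (0.791). In LKO livers they were replicate 1, highest for *Acsl4* (0.843), *Dbi* (0.709), *Fabp4* (0.899) and *Pdk4* (0.768), and replicate 5, highest for *Acsl1* (0.741). WT replicate 2 and LKO replicate 1 together account for 7 of the 10. The genes share their livers and CPM was used without taking logs, so the excess over 3.8 is not interpreted. Genes named only for their likeness to another gene were not searched. The labels give no condition that separates these livers from the others of their genotype.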

How the results depend on the processing

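*Fabp2* remained the only called gene of the 10 under RLE and upper-quartile scaling, both other filters, limma voom, DESeq2, the replicate block and scaling without the 20 most abundant genes, with adjusted p-values from 9.81e-05 to 0.0216. With 1 liver left out the number called was 0 to 1, and 0 without both WT replicate 2 and LKO replicate 1, where the adjusted p of *Fabp2* was 0.0700 (edgeR). With 1 liver left out, log2 fold changes ran from −0.089 to 0.051 for *Acsl1*, from −0.026 to 0.27 for *Acsl3*, from −0.059 to 0.57 for *Acsl4* and from −0.023 to 0.066 for *Slc27a2*, and these were the genes of the 10 that changed sign. Over all genes, 75 were called, against 114 with no filter, 351 with DESeq2, 47 without the same 2 livers and 38 to 132 with 1 liver left out, the extremes being WT replicate 5 and WT replicate 3. Same-numbered livers do not share an animal, and the correlations of their deviations ran from −0.06 to 0.14 over the 6 numbers. With the replicate block, 97 genes were called and 1 of the 10. At this depth the least abundant of the 10 genes, *Acsl3*, had 295 to 918 reads per liver.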
